A study of Schizosaccharomyces pombe with 3 samples.

Results

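The genes cox8 and osm1 of Schizosaccharomyces pombe were described across 3 glucose concentrations. The first encodes a subunit of mitochondrial cytochrome c oxidase, and the second is predicted to encode a fumarate reductase. They were chosen by name, with the remark that their FPKM ratios went in opposite directions with glucose, and they are 2 of the 444 genes in the deposited tables, of which 177 have values at every concentration. The same ratios chose both genes, so their levels are given as a description and no test was applied to them. Wild type cells of strain 972h- were grown to mid-log phase in Synthetic Dextrose medium with 3% (T1), 5% (T2) or 8% (T3) glucose. For each concentration 1 library was sequenced, made from the pooled RNA of 3 replicates, so no difference between concentrations has a replicate check. The study does not say whether these replicates were separate cultures. The tables hold only genes that differed at least 2-fold in a comparison and that the authors kept, and a gene outside them has no value here. Called here means having a row in a table, and for T2 against T1 and T3 against T1 the tables hold more rows than the study counts as differentially expressed. Expression is given in FPKM (fragments per kilobase of transcript, scaled to the size of the library) with the RSEM count behind it. The scale of the FPKM values corresponds to an estimated 5746104 to 5888603 fragments per library. This fitted scale lies below the numbers of gene-mapped reads that the study reports, also when these are counted as pairs.

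The respiratory chain of the inner mitochondrial membrane passes electrons from NADH, succinate and other donors through ubiquinone and cytochrome c to oxygen. Cytochrome c oxidase, also called complex IV, carries out the last step, and cox8 encodes a small nuclear subunit of it that is made with a mitochondrial targeting sequence. Fumarate reductase, which osm1 is predicted to encode, transfers electrons the other way from succinate dehydrogenase, onto fumarate to give succinate. In Saccharomyces cerevisiae the soluble fumarate reductases work without the respiratory chain and serve to reoxidise reduced cofactors when oxygen is scarce. S. pombe ferments glucose to ethanol even in air, so that respiration carries a small part of its glucose use when the sugar is plentiful.

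Both genes lie on chromosome I in assembly ASM294v3 of RefSeq. The cox8 gene (SPAC24C9.16c) spans chrI:3042749-3043307 on the minus strand, with 4 exons and 3 introns of 54 to 186 bases. Its spliced model has 252 bases, equal to the length in the deposited tables, of which 201 are coding and encode 66 amino acids. No 5′ untranslated bases are annotated for it. The osm1 gene (SPAC17A2.05) spans chrI:3560521-3562931 on the plus strand, with 2 exons and 1 intron of 315 bases. Its coding sequence of 1542 bases encodes 513 amino acids, between 210 bases of 5′ and 344 bases of 3′ untranslated exon. The deposited model of osm1 is an earlier version of 2109 bases, against 2096 bases in the assembly. The complete coding sequence of cox8 is shown because it is short and its exons are small, which bears on how reads can be assigned to it. Exons 2 and 4 are in capitals, so each change of case is a splice junction, and the line reads 5′ to 3′ along the minus strand of chrI:3042800-3043307 with the introns removed. For osm1 the coding part of exon 1 is shown to the splice junction (chrI:3560731-3560941, plus strand), with the start codon in capitals.
cox8: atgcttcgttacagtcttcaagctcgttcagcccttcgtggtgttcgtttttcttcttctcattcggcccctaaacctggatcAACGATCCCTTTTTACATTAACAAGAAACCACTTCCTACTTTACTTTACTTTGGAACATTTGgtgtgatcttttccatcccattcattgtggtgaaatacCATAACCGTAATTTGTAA
osm1: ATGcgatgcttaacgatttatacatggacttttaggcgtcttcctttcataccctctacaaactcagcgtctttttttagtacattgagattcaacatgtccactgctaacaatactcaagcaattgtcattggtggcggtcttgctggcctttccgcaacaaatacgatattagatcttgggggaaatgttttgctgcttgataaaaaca

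**Figure D1:**
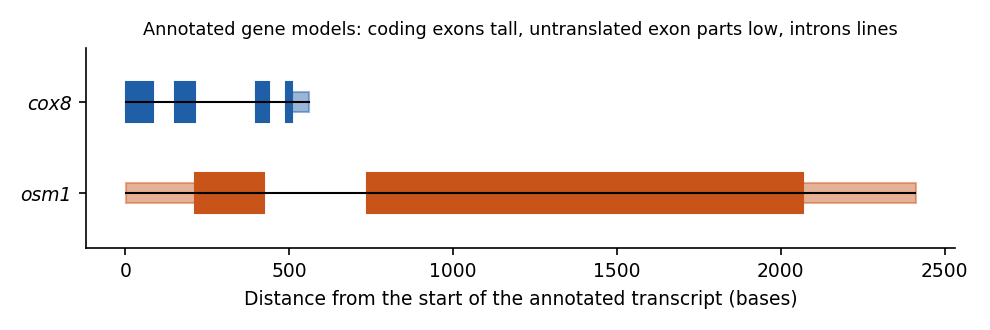
Annotated models of cox8 and osm1 in ASM294v3, drawn to one scale as bases from the start of each transcript. Coding exon parts are tall, untranslated exon parts are low and introns are lines, and the 4 short exons of cox8, of at most 83 bases, stand beside the 1675-base second exon of osm1.

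All 6 counts of cox8 and osm1 were whole numbers, whereas 32 of the 444 genes had fractional counts, which RSEM gives when it divides reads among sequences. Both genes overlap others on the opposite strand, and no step that the study describes assigns reads by strand. The single exon of mvd1, which encodes mevalonate diphosphate decarboxylase of the sterol pathway, covers 251 of the 252 spliced bases of cox8. The longest cox8 exon has 83 bases, so all 153 windows of 100 bases in its spliced model cross a splice junction, and none matched the mvd1 model or another annotated transcript. For osm1, 1446 of 1997 such windows also lie in 2 long non-coding RNAs annotated on the opposite strand. Reads from these RNAs and from osm1 cannot be told apart without strand. None of the 4 nearest protein-coding neighbours of cox8 (cyt2, mvd1, med9 and mug70) or of osm1 (vma6, cns1, vps8 and SPAC17A2.07c) has a row in the tables. The letters CCAAT, the sequence bound by the Php complex that acts on respiratory genes in fission yeast, were searched on both strands of the 500 bases before each start codon. Neither cox8 nor osm1 has a match there, and 59.5% of 5112 protein-coding genes have at least 1.

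Expression of cox8 was highest in the T1 library. Its level was 837 FPKM in T1, 257 FPKM in T2 and 226 FPKM in T3, from 918, 309 and 264 counts. The 95% counting intervals were 784 to 893 FPKM in T1, 229 to 287 FPKM in T2 and 199 to 254 FPKM in T3, so T1 stood apart while T2 and T3 overlapped. The gene osm1 had a different step. It stood at 44.4 FPKM in T1, 44.4 FPKM in T2 and 95 FPKM in T3, from 522, 539 and 1137 counts. Its intervals were 40.7 to 48.4 FPKM in T1, 40.8 to 48.3 FPKM in T2 and 89.6 to 101 FPKM in T3, and here T3 stood apart. The genes therefore differed in opposite directions and between different concentrations, cox8 between 3% and 5% glucose and osm1 between 5% and 8%. Per length, cox8 was 18.8 times as abundant as osm1 in T1, 5.78 times in T2 and 2.37 times in T3.

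**Figure D2:**
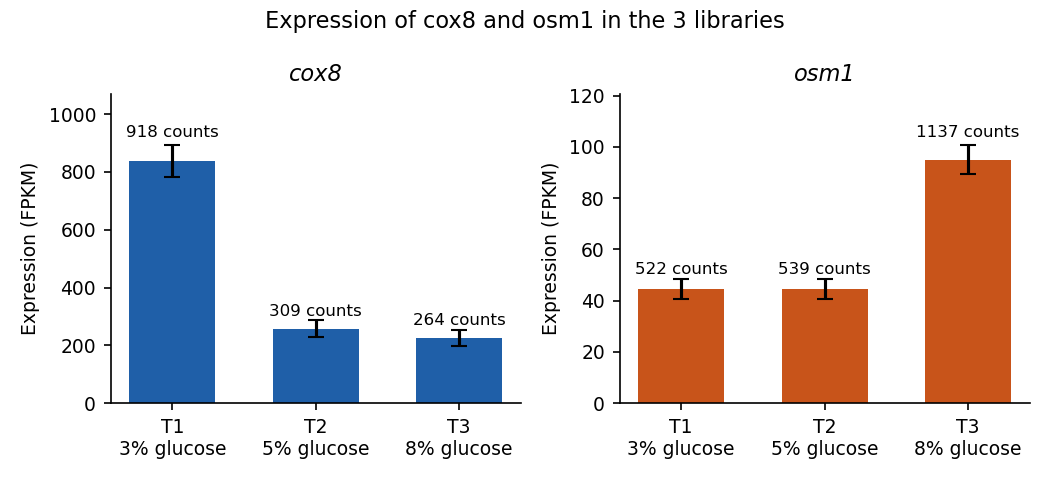
Expression in FPKM of cox8 and osm1 at 3%, 5% and 8% glucose, 1 library per bar, with 95% counting intervals as error bars and the counts above them. For cox8 the T1 bar stands at 837 FPKM above T2 and T3, and for osm1 the T3 bar stands at 95 FPKM above T1 and T2.

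When T2 and T1 were compared, cox8 stood 3.26-fold below T1 in T2 (95% counting interval 2.86 to 3.72), with a log2 ratio of -1.70. This was the fifth largest decrease among the 26 genes lower in T2 in that table, which were 29.9% of its 87 genes, the other 70.1% being higher. For osm1 the T2 level was 1.0 times that in T1 (0.886 to 1.13), and osm1 has no row in that table. These intervals reflect counting error alone and take no account of variation among cultures or in library preparation.

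Between T3 and T1 both genes were called. Expression of cox8 was 3.71-fold lower in T3 (3.23 to 4.27), with a log2 ratio of -1.89. It ranked 27 by size among the 132 genes lower in T3, which were 36.0% of the 367 genes of the table. Expression of osm1 was 2.14-fold higher in T3 (1.93 to 2.38), with a log2 ratio of 1.10. Its place was 195 among the 235 higher genes, 64.0% of the table. The osm1 ratio thus lay close to the 2-fold limit of the tables, and its interval reached below it. The smallest ratio kept in that table was a log2 difference of 1.01.

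Comparing T3 and T2, osm1 was 2.14-fold higher in T3 (1.93 to 2.37), with a log2 ratio of 1.10, and ranked 61 among 80 higher genes (44.2% of the 181 genes of the table, with 55.8% lower). The cox8 log2 ratio was -0.19 (-0.43 to 0.05), and its row is absent from that table. The ratios share libraries, the T3 library in both osm1 differences and the T1 library in both cox8 differences, so they are not separate observations. Among the 173 genes with at least 1 count in every library, 14 (cox8 included) were at least 2-fold lower in T2 than in T1 and less than 2-fold different between T3 and T2. The pattern of osm1, at least 2-fold higher in T3 than in T2 and less than 2-fold different between T2 and T1, was shared by 56 genes with osm1 included.

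**Figure D3:**
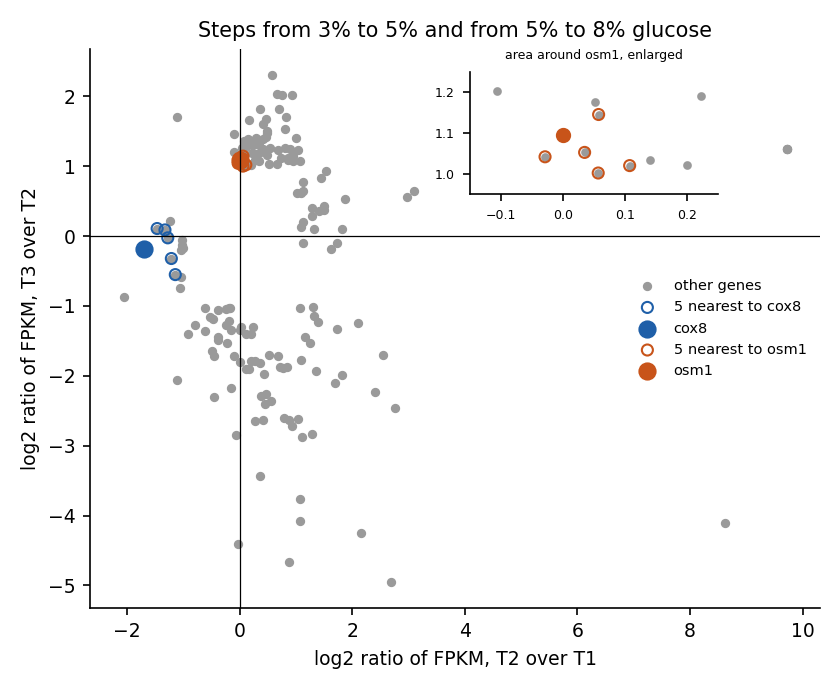
Each point is 1 of the 173 genes with counts in every library, with the log2 ratio of T2 over T1 on the horizontal axis and of T3 over T2 on the vertical axis, and an inset enlarges the area around osm1. The point of cox8 lies left at -1.70 and near 0 on the vertical axis, and that of osm1 lies near 0 on the horizontal axis and at 1.10 on the vertical axis.

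The genes whose pattern over the 3 libraries was most like that of cox8, by the Euclidean distance of centred log2 FPKM values, were snp27, rpl4102, SPBC27.05, rps3001 and rps2801, at 0.36 to 0.46. The first encodes a predicted subunit of the U4/U6.U5 particle of the spliceosome, and 3 of the others encode cytosolic ribosomal proteins. The level of rpl4102 was 2337 FPKM in T1, 845 FPKM in T2 and 911 FPKM in T3, and its model of 249 bases is close in length to cox8. For snp27 the levels were 271 FPKM in T1, 117 FPKM in T2 and 93.6 FPKM in T3. With 3 libraries such likeness is a description of these libraries only.

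The cox8 model is among the shortest in the tables, with only 2 of 444 genes shorter and a median of 1854 bases. A larger share of the short models than of the long ones was lower in T2 and in T3 than in T1, which was not tested. Among 20 genes of up to 600 bases with T2 and T1 values in that comparison, 14 were lower in T2 (70.0%), cox8 included, against 12 of 67 longer genes (17.9%). Among 31 such genes compared between T3 and T1, 21 were lower in T3 (67.7%), against 111 of 336 longer genes (33.0%). In T2 against T1 the 14 lower short genes had a median of 2072 FPKM in their higher library, against 38.8 FPKM for the 6 higher ones. Many of these 14 encode cytosolic ribosomal proteins, among them rpl4102, rps3001 and rps2801. The parts of model length, level and gene family in these differences, that of cox8 included, were not tested. The length that RSEM used for cox8 after its correction for fragment size can be recovered from the tables, and it was 191 bases in T1, 204 bases in T2 and 201 bases in T3. With counts scaled by library fragments alone, which leaves this correction out, the cox8 log2 ratios were -1.61 for T2 over T1 and -1.82 for T3 over T1. Of the 5 other genes within 20% of the cox8 length, all with rows in the T3 over T1 table, 4 were lower and 1 was higher in T3. The higher gene was the coa6 entry described with the other complex IV genes.

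**Figure D4:**
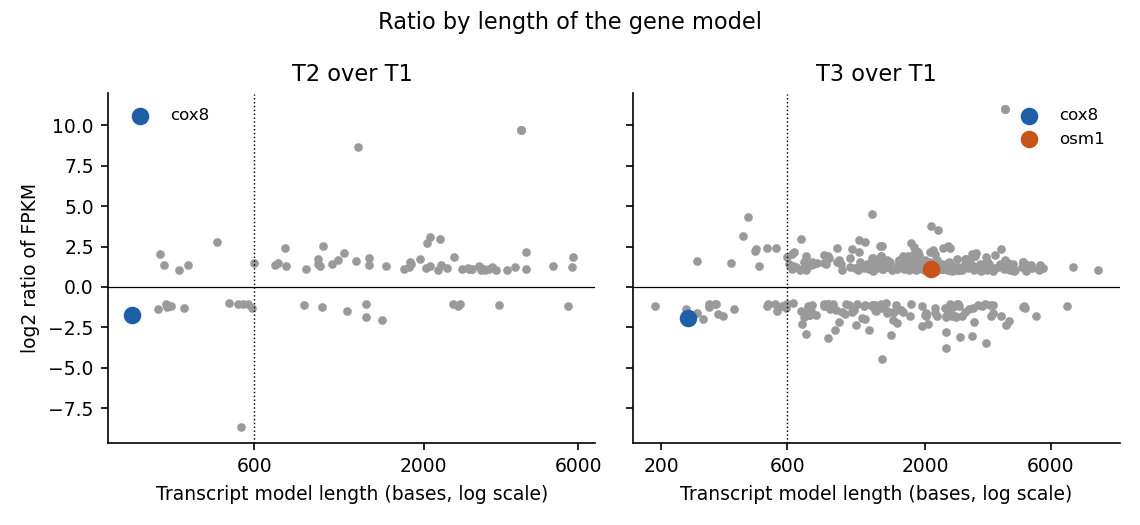
The log2 ratio of FPKM by length of the transcript model (log axis) for genes with counts in both libraries, T2 over T1 on the left and T3 over T1 on the right, with a dotted line at 600 bases. Left of the line most points lie below 0, cox8 among them at -1.70 and -1.89, and osm1, which has no row in the left table, lies at 1.10 in the right panel among the longer genes.

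The genes most like osm1 followed it more closely, at distances of 0.03 to 0.08. The nearest was hem4, given as uroporphyrinogen-III synthase of haem synthesis, at 97.8 FPKM in T1, 100 FPKM in T2 and 208 FPKM in T3. The protein match that the files give for this entry is the MAP kinase Spk1, which differs from its name. The next was pex6, whose product recycles a peroxisomal import receptor, at 16.9 FPKM in T1, 16.6 FPKM in T2 and 34.2 FPKM in T3. They were followed by an entry described as chk1 with a protein match to Meu27, by spo7 and by the predicted short chain dehydrogenase gene SPCC162.03, all below 20 FPKM in every library. Only genes kept in more than a single table can be compared in this way. All these genes have rows in the tables that hold osm1, as the genes nearest cox8 have in those that hold cox8. The osm1 pattern was shared by 56 genes and the cox8 pattern by 14, so osm1 had more genes around it. Whether its closer matches go beyond this was not tested. Of 112 genes within 20% of the osm1 length, 94 had a row for T3 over T1, with 74 higher and 20 lower in T3, beside 64.0% higher in that whole table. For T3 over T2, where osm1 was higher, 45 had a row, with 21 higher and 24 lower in T3, beside 44.2% higher in the table. The nearest in length were SPBC16G5.17, tna1 and clg1, with log2 ratios of T3 over T1 of 1.06, 3.74 and 1.57.

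In lists of electron transfer genes and genes linked to oxygen use, 152 genes were found in the assembly, and 13 of them (8.55%) have a row in any table, beside 8.06% of 5124 annotated protein-coding genes. The remaining 139 have no value here. Between T3 and T1, 9 were higher and 2 were lower in T3, so that 81.8% of the 11 called were higher, against 64.0% of all genes of the table. Their median log2 ratio was 1.10, against 1.12 for the table. The counts include cox8 and osm1, which were chosen on these values. Between T2 and T1, 1 was higher and 1, cox8, was lower, beside 70.1% higher in the table. Between T3 and T2, 3 were higher and 2 were lower, beside 44.2% higher in the table.

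Among the 11 subunits of complex IV cox8 was the only one with a row. Of 31 genes of complex IV assembly, copper delivery and mitochondrial RNA binding, 3 were called between T3 and T1. All 3 were higher in T3, beside 64.0% higher among all genes called. The entry matched to coa6, which the files describe as like oxidase subunit 6B and which acts in oxidase assembly, had 54 counts in T3 against 17 in T1, 2.99-fold higher (1.71 to 5.50). It thus went the other way from cox8, on few counts and with a model of 273 bases. The genes ppr5 and ppr1 encode mitochondrial proteins of the pentatricopeptide repeat class, which bind RNA. Expression of ppr5 was 45.7 FPKM in T3 and 17.4 FPKM in T1, 2.62-fold higher (2.37 to 2.90), and that of ppr1 was 2.07-fold higher (1.90 to 2.26). No row was found for the 17 genes of complex III and cytochrome c, the 12 of ubiquinone synthesis and the 21 of ATP synthase. Since 8.06% of all annotated protein-coding genes have a row, lists of these sizes hold few rows or none at that share. The presence or absence of rows is therefore no result about these lists.

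Succinate dehydrogenase, or complex II, runs the reaction of fumarate reductase in reverse. Of the 8 genes of its list, tim18 had a row, with 248 FPKM in T3 and 120 FPKM in T1, 2.06-fold higher (1.83 to 2.31). The files describe its product as an anchor subunit of the TIM22 protein import complex, and the name sdh4 is a synonym in RefSeq. Among 17 genes of fumarate, succinate and the citric acid cycle only osm1 had a row. Of the 6 dehydrogenases that pass electrons to ubiquinone or cytochrome c, gut2, the mitochondrial glycerol-3-phosphate dehydrogenase gene, had a row, with 31.2 FPKM in T3 against 263 FPKM in T1, a decrease of 8.43-fold (7.67 to 9.29). In T2 it stood at 339 FPKM. Its decrease therefore lay between 5% and 8% glucose, as the osm1 difference did, whereas cox8 differed between 3% and 5%.

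Of 5 genes of alternative electron acceptance and haem proteins, both that had a row were highest at 8% glucose. Among all genes called between T3 and T1, 64.0% were higher in T3. The gene yhb1 encodes a flavohaemoglobin that detoxifies nitric oxide, and its level was 52.9 FPKM in T1, 73.5 FPKM in T2 and 236 FPKM in T3. The T3 level was 4.45 times that of T1 (4.08 to 4.87). The gene obr1, whose product the files call a ubiquitinated histone-like protein, had a T3 level 2.62 times that of T1 (2.56 to 2.69), and like osm1 it differed little between T2 and T1, at 1.09-fold (1.06 to 1.12).

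Of 24 genes of haem and sterol synthesis steps and their regulators, 2 were called between T3 and T1. Both were higher in T3, beside 64.0% higher among all genes called. The gene hem13 encodes coproporphyrinogen oxidase, an enzyme of haem synthesis that uses oxygen, and had 436 FPKM in T3 and 187 FPKM in T1, 2.33-fold higher (2.19 to 2.48). The gene sre1, whose product is the membrane-bound transcription factor activated in low oxygen and low sterol, was 2.09-fold higher in T3 (1.93 to 2.25). The sterol desaturase gene erg31 instead had 49.5 FPKM in T3 and 101 FPKM in T2, a 2.04-fold decrease (1.82 to 2.29). The CCAAT-binding subunit gene php3 had 131 FPKM in T2 and 63.2 FPKM in T1, 2.07-fold higher (1.63 to 2.63). It has no value in T3.

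**Figure D5:**
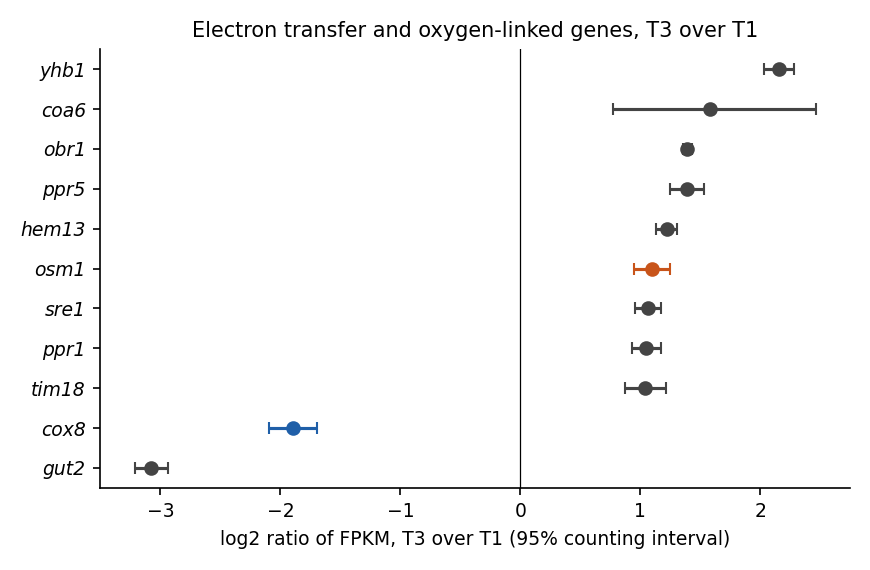
The log2 ratio of FPKM of T3 over T1 for the 11 listed genes called in that comparison, with 95% counting intervals. Of these genes 9 lie right of 0, osm1 among them at 1.10, and cox8 at -1.89 and gut2 at -3.08 lie left of it.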

How the data were processed

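RNA of S. pombe cells grown with 3%, 5% or 8% glucose was sequenced on an Illumina platform, with poly(A) selection and 1 library for each concentration. The authors filtered reads with SOAPnuke, aligned them to the genome with BWA and to genes with Bowtie, and estimated expression with RSEM. The build of that genome was not given in the sources used here. Expected counts in the deposited tables are the authors' RSEM estimates, and the deposited FPKM values scale these by corrected transcript length and library size. The columns of the authors' own comparisons (log2 ratios, p-values and FDR) were not used. Rows were filtered by the authors, and the T3 against T1 table has no FDR column. Of the 2 sheets per comparison, the first was taken for all values.

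Genes were named through ASM294v3 for 387 of 444 entries, by their own description for 28 and by the protein match for 9, and 20 had no name. Ratios of FPKM values carry 95% exact Clopper-Pearson intervals of the share of a library in the 2 rounded counts, converted to a ratio. In simulated data for T3 over T1, the intervals covered a true ratio of 1 for 94.7% of 369 genes and a true ratio of 2 for 98.5%. Such data cannot speak for variation among cultures or libraries. A single library per concentration allowed no test of differences. Library fragments were estimated by a line of count per FPKM on length over genes of at least 1000 bases and 10 FPKM. Python 3.11.15, numpy 2.4.6, pandas 2.3.3, scipy 1.17.1 and matplotlib 3.10.9 were used.

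Named genes were cox8 and osm1, listed genes with a row, the 5 nearest in pattern, the 3 nearest in length and the 2 coding neighbours on each side. Of 167 list names, 12 were not matched in the assembly. The members and lists were chosen with earlier results of these data known.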

Additional observations from a re-analysis of the deposited data

How the results depend on the processing

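The ratios of cox8 and osm1 and the numbers of listed genes were recomputed under 36 alternatives in all, and each kept its direction and stayed within its counting interval or within 1.5 times its number. For the ratios these were a pseudocount of 1 FPKM and counts scaled by fragments or by gene-mapped reads. The cox8 log2 ratio ran between -1.58 and -1.70 for T2 over T1 and between -1.79 and -1.89 for T3 over T1, smallest with gene-mapped reads. The osm1 log2 ratio of T3 over T1 ran between 1.08 and 1.13. For the numbers of listed genes the alternatives were at least 10 FPKM in the higher library, the second sheets and counts scaled by fragments, and none changed a number. All listed genes with a row already exceeded 10 FPKM in their higher library, the lowest being coa6 at 41.8 FPKM, so that filter could change nothing. The other alternatives rest on the same counts, and a pseudocount of 1 FPKM is small beside these levels, so little change was possible. No replicate could be left out, with 1 library per concentration. No paired analysis was possible because each concentration has a single library. Low counts limit the precision of entries such as coa6, with 17 counts in T1, and exo5, with 12.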

Other observations

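Other entries whose description or protein match names mitochondria, or whose match is the NDUFA4 homolog, were looked at after the values had been seen. Between T3 and T1 there were 14 such entries with counts in both libraries, cox8 among them, including 10 that were higher and 4 that were lower in T3, beside 64.0% higher in the whole table. Between T3 and T2 there were 4, with 1 higher and 3 lower in T3, beside 44.2% higher in that table. This search by wording did not return osm1, tim18 or the coa6 entry, which were also higher in T3 than in T1. The 4 entries lower in T3 than in T1 were cox8, gut2, gld1 (a mitochondrial glycerol dehydrogenase) and SPCC417.16. The last is described in the files as a predicted NADH-ubiquinone reductase subunit and matched to a homolog of the NDUFA4 protein, which in mammals is found with complex IV. It had 1186 FPKM in T1, 1711 FPKM in T2 and 523 FPKM in T3. The T3 level was below that of T2 by 3.27-fold (95% counting interval 3.11 to 3.44), so its difference lay between 5% and 8% glucose, unlike that of cox8.

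Of the higher entries, exo5 had the largest ratio of T3 over T1, 5.71-fold (3.07 to 11.6), from 70 counts in T3 against 12 in T1. The mitochondrial ribosomal protein genes mrpl27 and mrpl20 were 3.63-fold (2.19 to 6.28) and 3.12-fold (2.33 to 4.23) higher in T3 than in T1, from 75 and 194 counts in T3 against 20 and 61 counts in T1. The tRNA processing gene trz2 was 2.16-fold higher (1.79 to 2.61) and gta1, of mitochondrial glutaminyl-tRNA formation, was 2.13-fold higher (1.77 to 2.56). The predicted carrier genes mme1 and ort1 were 2.19-fold (1.81 to 2.65) and 2.28-fold (1.84 to 2.85) higher. Between T2 and T1 there were 4 entries found by the same wording, 3 higher in T2 and 1, cox8, lower, beside 70.1% higher in the whole table. The genes mrpl27 and mrpl20 were 2.81-fold (1.67 to 4.92) and 2.03-fold (1.49 to 2.80) higher in T2. The ATP synthase assembly gene fmc1, with a model of 315 bases, had 60 counts in T2 against 22 in T1, 2.53-fold higher (1.53 to 4.32).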
